A study of Mus musculus with 6 samples.

Results

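Methylation of cytosine in CpG dinucleotides is written by DNA methyltransferases, removed by way of TET dioxygenases and read by methyl-CpG binding proteins. The 9 genes described here are the writers Dnmt1, Dnmt3a and Dnmt3b with the maintenance cofactor gene Uhrf1, the erasers Tet1, Tet2 and Tet3, and the readers Mbd1 and Mbd2. They were taken by symbol from the gene column of a table of 24421 genes, and all 9 were found in it. The table holds FPKM (fragments per kilobase of transcript, scaled to the mapped fragments of the library) of 6 SMART-seq libraries of polyadenylated RNA. SMART-seq primes RNA at its poly(A) tail and amplifies the cDNA by PCR. The cells were regulatory T cells (Treg), the Foxp3-expressing lymphocytes that restrain immune responses, from spleen and lymph nodes of WT mice. The 3 groups held 2 libraries each: treatment "no" (unstimulated), stimulation, and stimulation+iBP, and no knockout, transgene or other allele is given for them. The design text describes activation in vitro and calls iBP an inhibitor of H2AK119ub1, the mark that Polycomb repressive complex 1 places on histone H2A. Age, sex, stimulus, duration, dose and whether animals were pooled are not given in the labels. No library had iBP without stimulation, so what iBP does by itself and what it does to the response cannot be told apart.

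DNMT1 copies the methylation pattern onto the new strand after replication, and UHRF1 brings it to hemimethylated DNA. DNMT3A and DNMT3B methylate sites that carry no mark, and TET enzymes oxidise 5-methylcytosine, which leads to its replacement by cytosine. In Treg this system is known for a conserved intronic element of Foxp3 that is demethylated in stable Treg, where TET2 and TET3 act and where loss of methylation goes with lasting Foxp3 expression. DNA methylation itself was not measured in these libraries.

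Of the 9 genes, 7 have at least 1 window in the set of RefSeq promoter windows used (GRCm38.p6), each running from 250 bases before to 50 after a start site. The set holds none for Mbd1 and Mbd2, which is a gap in the set and says nothing about their promoters. These 7 have 12 windows among them, and 3 windows are printed: that of Tet2, because Tet2 came nearest to passing a test and its window is extreme in CpG content, and 1 each of Dnmt1 and Uhrf1, the partners in maintenance methylation, because they share a short motif. The Tet2 window at chr3:133544341-133544640 (minus strand) holds 57 CpG, more than 99.8% of the 32851 windows of the set, against a median of 7. Its 20-base word ACGGCCCCGGGTCCCGCCGC occurs 4 times. In the first sequence the capitals mark every CpG.
Tet2: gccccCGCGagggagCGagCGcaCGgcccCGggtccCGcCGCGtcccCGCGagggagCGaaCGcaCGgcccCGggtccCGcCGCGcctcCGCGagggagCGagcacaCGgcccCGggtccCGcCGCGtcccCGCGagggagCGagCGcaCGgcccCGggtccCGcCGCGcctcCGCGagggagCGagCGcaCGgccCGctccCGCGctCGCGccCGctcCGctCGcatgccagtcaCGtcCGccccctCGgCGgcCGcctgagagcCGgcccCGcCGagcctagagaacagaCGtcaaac
The windows of Dnmt1 at chr9:20952574-20952873 (minus strand) and Uhrf1 at chr17:56304063-56304362 (plus strand) each hold 33 CpG, more than 91.4% of all windows. Each has 1 match to TTTCGCGC (GCGCGAAA on the other strand, with no overlap with another match), which is a form of the site bound by E2F, the factors that drive S-phase genes. The letters were chosen after these windows had been read. The motif is in 0.323% of all windows. Counted by gene, it is in 0.374% of 27025 genes and in 3 of 14 S-phase genes with a window. Its presence in 2 of the 7 genes follows from how the letters were chosen. None of these shares is matched for CpG content, and the motif itself holds CpG. A match is a description of the letters and not a site. The capitals mark it below.
Dnmt1: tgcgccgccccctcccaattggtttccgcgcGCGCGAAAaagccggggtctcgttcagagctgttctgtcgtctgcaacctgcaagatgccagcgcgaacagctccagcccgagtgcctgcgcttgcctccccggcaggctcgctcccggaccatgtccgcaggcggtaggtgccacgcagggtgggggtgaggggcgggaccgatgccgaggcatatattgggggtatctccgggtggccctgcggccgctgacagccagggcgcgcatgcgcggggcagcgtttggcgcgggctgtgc
Uhrf1: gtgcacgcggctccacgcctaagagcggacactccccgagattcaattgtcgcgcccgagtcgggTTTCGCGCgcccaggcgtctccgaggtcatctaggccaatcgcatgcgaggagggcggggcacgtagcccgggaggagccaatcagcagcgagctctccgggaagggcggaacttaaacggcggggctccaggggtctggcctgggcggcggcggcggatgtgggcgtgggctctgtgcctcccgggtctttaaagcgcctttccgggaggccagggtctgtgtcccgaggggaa
Other starts of the same genes were poorer in CpG: Dnmt1 has further windows with 12 and 2 CpG and Uhrf1 a further one with 12. Dnmt3a has windows with 46, 47 and 18 CpG, Dnmt3b 1 with 30, Tet3 1 with 22 and Tet1 1 with 17.

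Before the results by gene, 2 features of the libraries bear on them. Unstimulated replicate 1 stood apart, at −37.9 on the first principal component of all tested genes (33.5% of the variance) while unstimulated replicate 2 was at −9.32 and the 4 stimulated libraries between 10.5 and 13.3. It also held the lowest of the 6 values for 5 of the 9 genes (Dnmt1, Dnmt3b, Tet1, Tet2 and Tet3) and the highest for Mbd1. The share of all tested genes with their lowest value in this library was not counted, so the 5 are not a trait of the set. The library had the fewest genes above 0, 12596 against 13293 to 13592 in the others. Treg and T-cell defining genes were present in every library: Foxp3 read 35.5 and 47.1 FPKM unstimulated, 121 and 101 stimulated, and 122 and 124 with iBP. Others of the list did not follow Foxp3. Cd4 read 87.4 and 104, 84.3 and 83.1, and 107 and 91.3 FPKM, and Cd3d 151 and 116, 136 and 134, and 124 and 138. With stimulation 5 of the 7 tested had a difference above 0, and 2 passed (0.968% of all tested genes rose). B-cell markers were present as well, with all 8 of 8 listed genes tested and a summed FPKM of 844 and 878, 902 and 871, and 760 and 802 in the 3 groups. Among them Cd79b, a chain of the B-cell receptor, read 329 and 314, 336 and 340, and 222 and 244 FPKM (iBP against stimulated, adjusted p = 0.6). The list did not move with it: in that comparison 4 of the 8 B-cell markers had a difference above 0, with a median of 0.01. The 7 Treg and T-cell genes found in the table summed to less than the B-cell markers in both unstimulated libraries (677 in replicate 1, 691 in replicate 2). The same held in stimulated replicate 1, at 880 against 902 for the B-cell markers. Their sum was the larger one in stimulated replicate 2 (921 against 871) and with iBP (929 against 760 in replicate 1, 935 against 802 in replicate 2). This sum includes Foxp3 and Il2ra, which passed with stimulation, while Cd4 differed by −0.19 and Cd3d by 0.03 in that comparison. The 2 sums are over different numbers of genes (7 and 8) and do not give the share of either cell type. Myeloid and dendritic markers summed to between 76.2 and 107 FPKM, most of it from Lyz2 (65.5 to 99.5). Of the 11 listed, 3 were tested, while Itgam, Csf1r, Adgre1, S100a8, S100a9, Itgax and Xcr1 stayed under 1 FPKM. CD8 and NK markers summed to between 8.99 and 18.0 FPKM. Erythroid and platelet markers summed to between 308 and 770, the lowest in iBP replicate 2. There Hba-a2 read 120 FPKM, against 509 or more in each other library, and Hba-a1 read 123. None of these marker genes in the table was at 0 in all libraries. B cells and other leukocytes also use the 9 genes, and the part of such cells in the values below was not tested. In bulk RNA, fewer cells of a type and less RNA per cell cannot be told apart.

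Most of the 9 genes were expressed at a middling level, and the order of most neighbours was within the spread of the libraries. By the mean of 6 libraries the order of FPKM was Dnmt1 (11.8 ± 2.32, SD, n = 6), Tet2 (7.95 ± 1.76), Mbd1 (7.01 ± 1.52), Mbd2 (6.18 ± 1.04), Uhrf1 (6.04 ± 0.614), Dnmt3a (5.31 ± 1.66), Tet3 (5.12 ± 1.11), Dnmt3b (0.942 ± 0.35) and Tet1 (0.252 ± 0.192). These SDs include any difference between groups. Dnmt1 lay above 58.5% of tested genes and Tet3 above 37.8%, with the others down to Dnmt3a between them. Dnmt1 had the highest value of the 9 in 4 libraries, while Mbd1 did in unstimulated replicate 1 and Tet2 in iBP replicate 2. The 7 upper genes each overlapped with their neighbours in range. The one gap between neighbours without overlap was from Tet3 down to Dnmt3b, a 5.43-fold difference in means seen in 6 of 6 libraries. Dnmt3b stood above Tet1 in 6 of 6 libraries although their ranges over libraries overlapped.

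**Figure D1:**
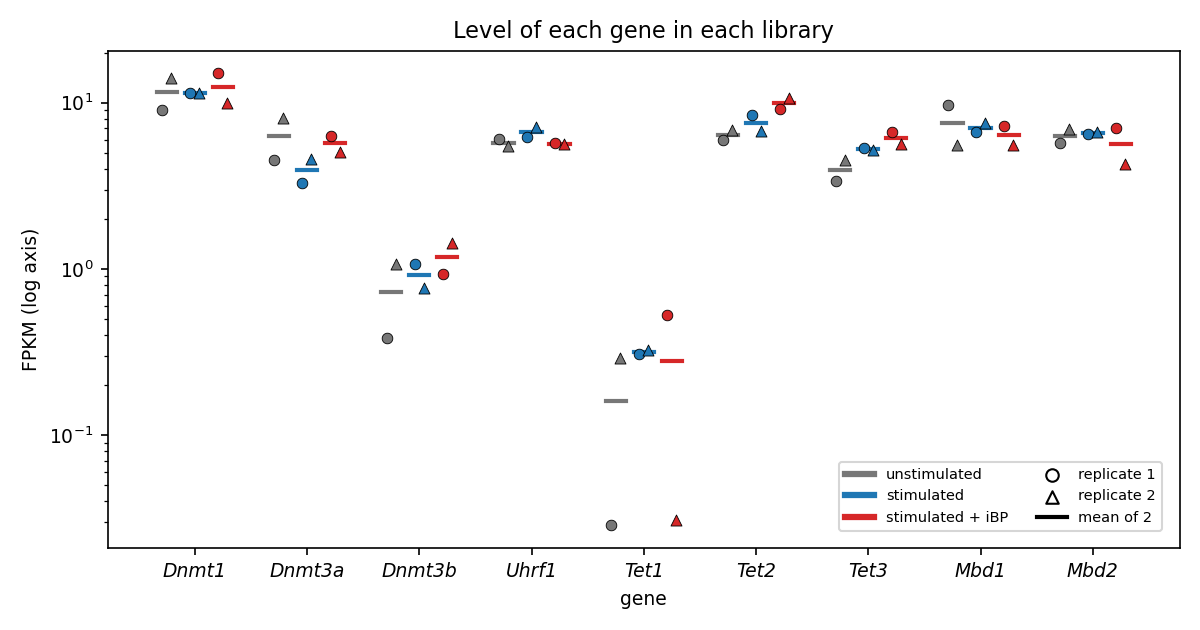
FPKM of the 9 genes in each library on a log axis, by gene, with circles for replicate 1, triangles for replicate 2 and a bar for the mean of the 2 libraries of a group. The 7 upper genes lie between 3.3 and 15.0 FPKM, while Dnmt3b stays at or below 1.43 and Tet1 at or below 0.526.

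No gene of the set passed the test in any comparison. A gene was tested when it had at least 1 FPKM in at least 2 libraries, which 10436 genes and 8 of the 9 members did, and it passed at an adjusted p under 0.05 over all tested genes (limma on log2(FPKM + 1)). In stimulated against unstimulated libraries 0 of 8 members passed, where 1.29% of all tested genes did (0.968% higher and 0.326% lower). With iBP against stimulated 0 of 8 passed (0.00958% of all genes), with iBP against unstimulated 0 of 8 (1.75%, with 1.03% higher and 0.728% lower), and for both stimulated groups against unstimulated 0 of 8 (2.43%, with 1.51% higher and 0.92% lower). At an unadjusted p under 0.05 the counts were 0, 0, 1 and 0 of 8, beside 10.8%, 4.77%, 12.2% and 13.3% of all genes. Under 16 alternative settings, 0 of 500 member values passed, and the lowest adjusted p was 0.288. On the log2(FPKM + 1) scale the 95% interval lay inside a 2-fold change both ways for 6 of 8 members in stimulated against unstimulated, 6 of 8 in iBP against stimulated, 5 of 8 in iBP against unstimulated and 8 of 8 for both stimulated groups (68.6%, 73.9%, 67.3% and 77.9% of all tested genes). These intervals do not bound the fold of FPKM itself, which this scale understates: with a pseudocount of 0.1 the last comparison gave 0.58 ± 0.68 (SE) for Dnmt3b, 0.53 ± 0.27 for Tet3 and −0.36 ± 0.31 for Dnmt3a. Comparisons against unstimulated libraries share those libraries, so their values are not independent.

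**Figure D2:**
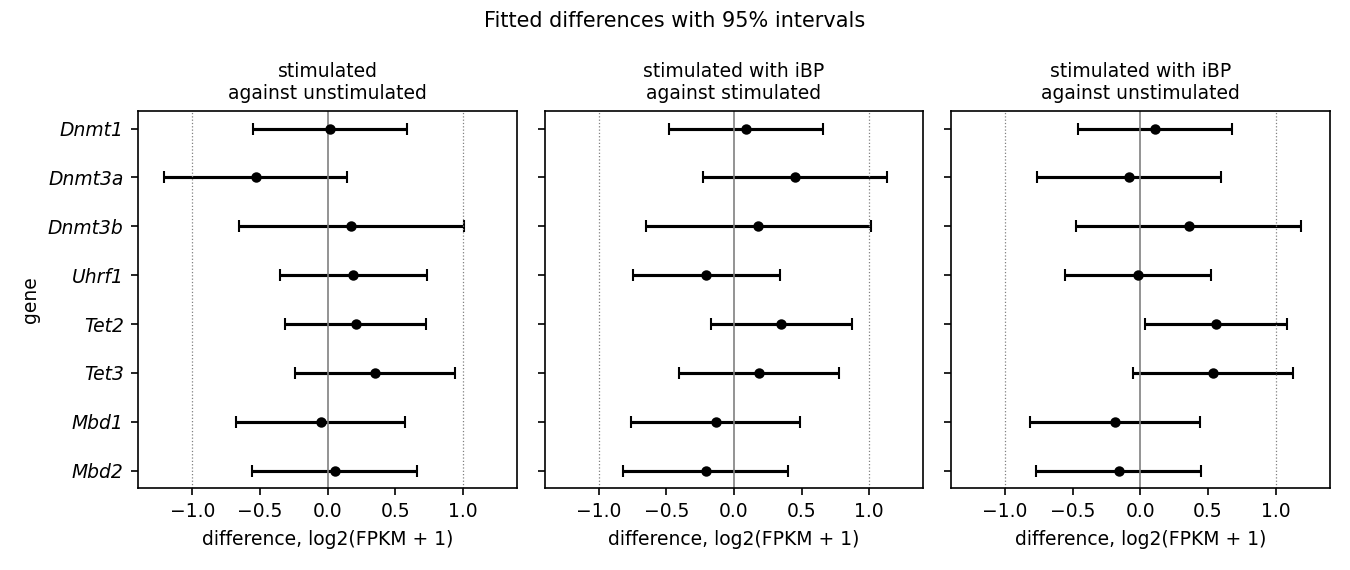
Fitted differences in log2(FPKM + 1) of the 8 tested genes in 3 comparisons, with bars for the 95% interval and dotted lines at a 2-fold change. Every interval crosses 0 except that of Tet2 with iBP against unstimulated, which runs from 0.04 to 1.08 before adjustment for the number of genes.

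Dnmt1, the maintenance methyltransferase (GRCm38 chr9:20907209-20959888, minus strand), read 9.03 and 14.1 FPKM in unstimulated libraries, 11.5 and 11.4 in stimulated ones, and 15.0 and 9.97 with iBP. The stimulated values lay between the unstimulated ones, and the iBP values lay on either side of the stimulated ones. Its difference was 0.02 ± 0.26 (log2, SE; adjusted p = 0.993) in stimulated against unstimulated and 0.09 ± 0.26 (adjusted p = 0.998) in iBP against stimulated. Without unstimulated replicate 1 the first of these turned to −0.28 (adjusted p = 0.879).

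Uhrf1, which encodes the reader of hemimethylated DNA that recruits DNMT1 (chr17:56303321-56323486, plus strand), was the steadiest of the tested members, with an SD of 0.12 in log2(FPKM + 1) over 6 libraries against 0.23 to 0.37 for the other 7. It read 6.05 and 5.45 FPKM unstimulated, 6.25 and 7.14 stimulated, and 5.70 and 5.63 with iBP. Both stimulated libraries were above all 4 others. The differences were 0.19 ± 0.25 (adjusted p = 0.876) with stimulation and −0.21 ± 0.25 (adjusted p = 0.998) with iBP against stimulated. Dnmt1 and Uhrf1 transcripts thus stood in ratios of 1.49 and 2.58, 1.84 and 1.60, and 2.64 and 1.77 in the 3 groups.

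S-phase genes, with which both are known to be expressed, had 0 of 20 called in either direction in stimulated against unstimulated, with a median of −0.03 (all genes 0.00). Their summed FPKM was 408 and 428 unstimulated, 360 and 359 stimulated, and 325 and 338 with iBP. Mcm6, the highest of the 20 in each library, weighs most in this sum. By gene, 10 of 20 differences were above 0 with stimulation and 7 of 20 with iBP against stimulated. With both stimulated groups set against unstimulated, 1 of 20 fell, where 0.92% of all tested genes did: Mcm6, a subunit of the replicative helicase, read 126 and 145 FPKM, then 85.1 and 101, then 85.0 and 93.0 (fell by 0.57, adjusted p = 0.0271). That call ended in 5 of 6 fits without 1 library, leaving only the one without stimulated replicate 2, with an adjusted p up to 0.129, and also when no filter was set (0.183) or no variance trend was used (0.25).

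Dnmt3a, the main de novo methyltransferase of mature T cells (chr12:3806007-3914443, plus strand), varied most among the tested members, with an SD of 0.37 in log2(FPKM + 1). It read 4.54 and 8.03 FPKM unstimulated, 3.30 and 4.56 stimulated, and 6.34 and 5.08 with iBP. Both stimulated values lay below both iBP values, while unstimulated replicate 1 was level with stimulated replicate 2. The difference was −0.53 ± 0.31 (95% interval −1.21 to 0.15, adjusted p = 0.592) with stimulation and 0.45 ± 0.31 (−0.23 to 1.13, adjusted p = 0.998) with iBP against stimulated. The first was −0.89 without unstimulated replicate 1 (adjusted p = 0.402) and −0.18 without unstimulated replicate 2 (0.855). Exons of Dnmt3aos, an antisense gene at 0.397 FPKM on average, overlap those of Dnmt3a, and without a stated strand their reads cannot be told apart.

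Dnmt3b, the other de novo enzyme (chr2:153649450-153687730, plus strand), lay at the edge of the filter, with at least 1 FPKM in 3 libraries and a mean above only 4.11% of tested genes. It read 0.382 and 1.07 FPKM unstimulated, 1.07 and 0.765 stimulated, and 0.936 and 1.43 with iBP, so that all 3 groups overlapped. Its differences were 0.18 ± 0.38 (adjusted p = 0.930) with stimulation and 0.18 ± 0.38 (adjusted p = 0.998) with iBP against stimulated, and on this scale they understate changes of so low a gene.

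Within a library, shares of the summed FPKM of a family do not depend on scaling between libraries. Dnmt1 took most of the Dnmt transcripts in each library, 64.7% and 60.8% in unstimulated, 72.4% and 68.2% in stimulated and 67.4% and 60.5% in iBP libraries. Dnmt3a took 32.5% and 34.6%, then 20.8% and 27.3%, then 28.4% and 30.8%. Its share was lower in both stimulated libraries than in the 4 others, and that of Dnmt1 was higher. The shares are a description, and no test was run on them. Dnmt3b took between 2.74% and 8.66%.

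**Figure D3:**
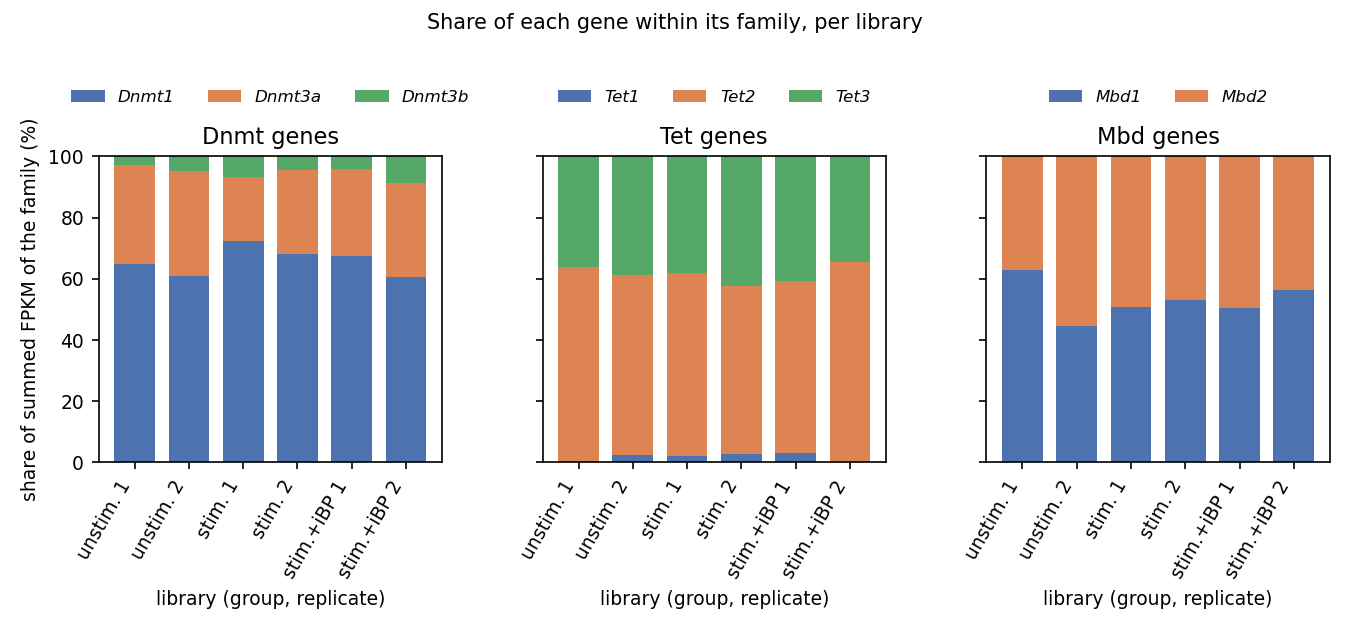
Share of each gene in the summed FPKM of its family, in percent, for the Dnmt, Tet and Mbd genes, with 1 stacked bar per library. Dnmt1 takes between 60.5% and 72.4% of the Dnmt sum and Tet2 between 54.9% and 65.3% of the Tet sum.

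Among the erasers, Tet2 and Tet3 had their highest group means with iBP and their lowest in unstimulated libraries, without passing the test. Tet2 (chr3:133463679-133545139, minus strand), the dioxygenase gene whose CpG-dense window is printed above, read 5.97 and 6.81 FPKM unstimulated, 8.39 and 6.73 stimulated, and 9.20 and 10.6 with iBP. Both iBP values were above all 4 others, and 1 stimulated value lay within the unstimulated range. The difference was 0.21 ± 0.24 (adjusted p = 0.843) with stimulation, 0.35 ± 0.24 (adjusted p = 0.998) with iBP against stimulated, and 0.56 ± 0.24 with iBP against unstimulated (95% interval 0.04 to 1.08, unadjusted p = 0.0379, adjusted p = 0.362). On leaving out 1 library the first of these ran from 0.07 to 0.35 and the second from 0.21 to 0.49. By unadjusted p the last value ranked 1094 of 10436 genes. Without unstimulated replicate 1 that value was 0.48 (adjusted p = 0.671). Exons of Gm42567, an antisense gene that was not analysed here, overlap those of Tet2.

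Tet3 (chr6:83362373-83459084, minus strand), the paralog that acts beside Tet2 in Treg, read 3.37 and 4.52 FPKM unstimulated, 5.33 and 5.21 stimulated, and 6.67 and 5.60 with iBP. The 3 groups did not overlap with one another, though stimulated and iBP values came as near as 5.33 and 5.60. Pair by pair, 18.7% (stimulated against unstimulated), 13.6% (iBP against stimulated) and 18.1% (iBP against unstimulated) of all tested genes were higher without overlap. The share for all 3 groups at once was not counted. The differences were 0.35 ± 0.27 (adjusted p = 0.717) with stimulation, 0.18 ± 0.27 (adjusted p = 0.998) with iBP against stimulated and 0.53 ± 0.27 with iBP against unstimulated (−0.06 to 1.13, adjusted p = 0.465). On leaving out 1 library the first ran from 0.18 to 0.52 and the second from 0.07 to 0.29. For both stimulated groups against unstimulated the difference was 0.44 ± 0.23 (adjusted p = 0.460), or 0.27 without unstimulated replicate 1 (adjusted p = 0.844).

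Tet1 (chr10:62804570-62908996, minus strand), the paralog known from embryonic stem cells, reached 1 FPKM in 0 of 6 libraries and so did not enter the test. It read 0.0287 and 0.291 FPKM unstimulated, 0.309 and 0.327 stimulated, and 0.526 and 0.0307 with iBP, a spread of 18.4-fold between the extremes with each group overlapping another. Fitted without the filter on low values, over 16033 genes, it differed by 0.19 ± 0.22 with stimulation (adjusted p = 0.84) and by −0.07 ± 0.22 with iBP against stimulated (adjusted p = 1). Of the Tet sum it took between 0.19% and 3.21%, against 63.7% and 58.6%, 59.8% and 54.9%, and 56.1% and 65.3% for Tet2 in the 3 groups. Tet2 was above Tet3 in each library, by 1.29-fold to 1.89-fold.

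The balance of writer to eraser transcripts, as the ratio of summed Dnmt to summed Tet FPKM, was 1.49 and 2.0 in unstimulated, 1.13 and 1.36 in stimulated and 1.36 and 1.02 in iBP libraries. Both unstimulated ratios lay above the 4 others. The Tet sum was 9.37 and 11.6 FPKM, then 14 and 12.3, then 16.4 and 16.2, while the Dnmt sum overlapped between groups (14 and 23.2, 15.9 and 16.7, 22.3 and 16.5). These sums mirror the values of the single genes given above and were not tested.

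Mbd1, a methyl-CpG reader with zinc fingers that also bind unmethylated CpG (chr18:74267605-74282732, plus strand), read 9.62 and 5.55 FPKM unstimulated, 6.63 and 7.50 stimulated, and 7.21 and 5.54 with iBP. The unstimulated pair spanned nearly all the others. The difference was −0.05 ± 0.29 (adjusted p = 0.979) with stimulation, or 0.30 without unstimulated replicate 1 (adjusted p = 0.885), and −0.14 ± 0.29 (adjusted p = 0.998) with iBP against stimulated. Mbd2, which links methylated DNA to the NuRD co-repressor (chr18:70568189-70626131, plus strand), read 5.71 and 6.92, 6.46 and 6.64, and 7.07 and 4.28 FPKM. All 3 groups overlapped, and iBP replicate 2 held the lowest value. Its differences were 0.05 ± 0.28 (adjusted p = 0.978) and −0.21 ± 0.28 (adjusted p = 0.998). Mbd1 took 62.8% and 44.5% of the sum of both genes in unstimulated, 50.7% and 53.0% in stimulated and 50.5% and 56.4% in iBP libraries.

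Counted by overlap alone, 2 of 8 tested members (Uhrf1 and Tet3) had both stimulated values above both unstimulated ones and 0 had both below, where 18.7% and 19.1% of all tested genes did. With iBP against stimulated, 3 of 8 were higher without overlap (Dnmt3a, Tet2 and Tet3; 13.6% of all genes) and 1 lower (Uhrf1; 21% of all genes). With iBP against unstimulated, 2 of 8 were higher (Tet2 and Tet3; 18.1%) and 0 lower (23.9%). Tet3 alone was higher in all 4 stimulated libraries than in both unstimulated ones (1 of 8; 9.98%), and 0 were lower (11.7%). The median difference of the 8 was 0.11 with stimulation (all tested genes 0.00) and 0.14 with iBP against stimulated (all tested genes −0.03).

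For the 3 members that varied most over the libraries, like profiles were sought among tested genes other than predicted genes, clones, pseudogenes and mitochondrial genes. The counts within 0.2 below are over the same genes, and likeness was not tested. The measure was the root mean square difference between log2(FPKM + 1) values centred over the 6 libraries. For Dnmt3a the closest were Pfn2 (0.105), Zfp689 (0.114) and Cep170 (0.128), and 99 genes lay within 0.2. For Tet2 they were Ddx19b (0.0573), Mib2 (0.0646) and Haus2 (0.0648), with 575 genes within 0.2. For Dnmt3b they were Ccdc186 (0.0476), Tmc6 (0.0511) and the B-cell receptor co-receptor gene Cd22 (0.0577), with 744 within 0.2.

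Genes that work with the 9 also stayed below the threshold. Of 10 tested partners of maintenance and de novo methylation (13 listed) 0 passed in any of the 4 comparisons, with a median of −0.10 with stimulation and −0.10 with iBP against stimulated. Lig1, the replicative DNA ligase gene whose product helps recruit UHRF1, read 18.6 and 15.6 FPKM unstimulated, 11.2 and 11.8 stimulated and 9.67 and 11.4 with iBP. Its difference was −0.52 ± 0.20 with stimulation (adjusted p = 0.356), and all 4 stimulated libraries lay below both unstimulated ones, as for 11.7% of all tested genes. Setdb1, a histone H3 lysine 9 methyltransferase gene, read 5.09 and 8.23, 9.57 and 8.67, and 9.71 and 8.26 FPKM (0.43 ± 0.26 with stimulation, adjusted p = 0.617, and 0.13 to 0.73 on leaving out 1 library). Dnmt3l, the catalytically inactive cofactor of DNMT3 enzymes in germ cells, was above 0 in 1 library, at 0.00517 FPKM.

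Of 13 tested genes that act after TET oxidation or modulate TET (15 listed), 0 passed in any comparison (median 0.02 with stimulation and −0.05 with iBP against stimulated). Tdg, the glycosylase that removes oxidised methylcytosine, read 36.7 and 28, 25.5 and 40.0, and 35.7 and 19.9 FPKM, with all groups overlapping. Gadd45a, a stress-induced gene linked to demethylation, differed by −0.57 ± 0.24 with stimulation (adjusted p = 0.414) and the DNA ligase gene Lig3 by 0.52 ± 0.30 (adjusted p = 0.589). Of 8 other methyl-CpG readers and MBD family genes 0 passed in any comparison (medians −0.11 and 0.02). The zinc-finger reader gene Zbtb4 differed by −0.39 ± 0.30 with stimulation (adjusted p = 0.71, and −0.69 to −0.09 on leaving out 1 library), and the glycosylase gene Mbd4 by −0.26 ± 0.44 (adjusted p = 0.908).

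NuRD subunits, with which MBD2 and MBD3 work, had 0 of 12 called in any comparison (medians 0.07 and −0.06). The largest differences with stimulation were in Gatad2a (−0.48 ± 0.21, adjusted p = 0.453) and Cdk2ap1 (−0.35 ± 0.34, adjusted p = 0.804). CXXC-domain genes, whose products bind unmethylated CpG, had 0 of 5 tested called (medians −0.10 and −0.08). Among them Kdm2b, which brings PRC1.1 to CpG islands, read 56.5 and 56.2 FPKM unstimulated, 43.5 and 48.7 stimulated, and 41.3 and 39.3 with iBP (−0.29 ± 0.14 with stimulation, adjusted p = 0.502; −0.47 ± 0.14 with iBP against unstimulated, adjusted p = 0.148). Its groups did not overlap. Pair by pair, 19.1% (stimulated against unstimulated), 21% (iBP against stimulated) and 23.9% (iBP against unstimulated) of all tested genes were lower without overlap. The share for all 3 groups at once was not counted. Kdm2b was more highly expressed than any of the 9 members. Kdm2a, its paralog, differed by 0.37 ± 0.18 with stimulation (adjusted p = 0.509). Genes listed for the supply or turnover of the methyl donor or of 2-oxoglutarate, the TET cosubstrate, had 0 of 11 called in any comparison (medians −0.03 and 0.08). Ahcy, which clears the product of methyl transfer, differed by 0.50 ± 0.21 with stimulation (adjusted p = 0.397). The related gene Ahcyl1, whose part in this supply these data do not show, differed by 0.55 ± 0.31 (adjusted p = 0.585).

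**Figure D4:**
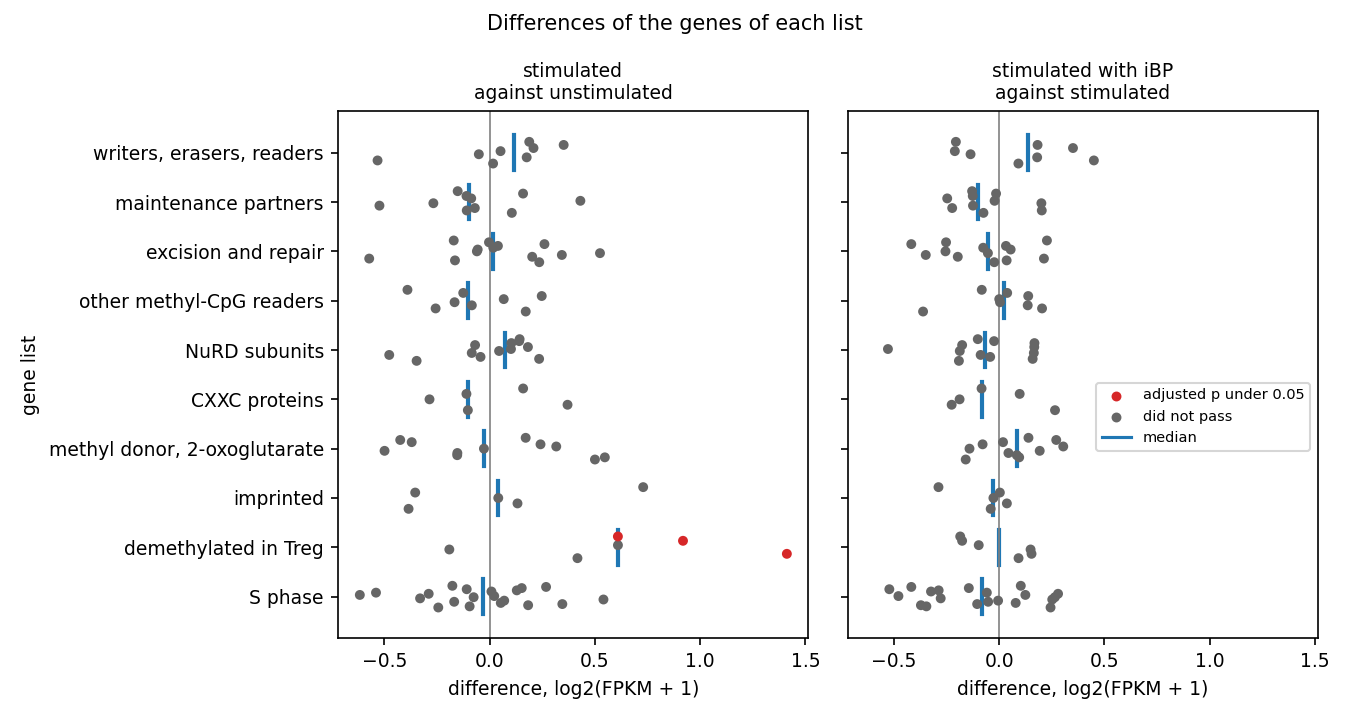
Differences in log2(FPKM + 1) of the tested genes of each list in stimulated against unstimulated and iBP against stimulated, with 1 point per gene, red where the adjusted p is under 0.05, and a blue line at the median; "demethylated in Treg" names genes known for a demethylated element there, not a measurement. The 3 red points are Foxp3, Il2ra and Tnfrsf18, and the right panel has none.

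Lists of genes that are known to depend on methylation were read as well. Of 16 germline genes known to be silenced by promoter methylation in somatic cells, 0 passed the filter, 11 were listed at 0 in all 6 libraries, and the highest value was 0.417 FPKM. Imprinted genes had 0 of 5 tested called in any comparison (19 listed, medians 0.04 and −0.03); the largest differences with stimulation were in Zrsr1 (0.73 ± 0.36, adjusted p = 0.497) and Igf2r (−0.39 ± 0.21, adjusted p = 0.541). Of 6 genes known for a demethylated element in Treg, 3 rose with stimulation and 0 fell (median 0.61; 0.968% and 0.326% of all tested genes), and 0 passed with iBP against stimulated (median 0.00). These were Foxp3 (1.41 ± 0.16, adjusted p = 0.000923), the IL-2 receptor gene Il2ra (0.92 ± 0.13, 0.00364) and Tnfrsf18, which encodes GITR (0.61 ± 0.10, 0.012). With iBP against unstimulated, Foxp3 (1.57), Il2ra (0.74) and the inhibitory receptor gene Ctla4 (0.51, adjusted p = 0.0412) rose (3 of 6; 1.03% of all tested genes), and with both stimulated groups all 4 of these genes did (4 of 6; 1.51%). With 1 library left out, calls ended for Tnfrsf18 with stimulation (without stimulated replicate 2, adjusted p = 0.0763), for Il2ra with iBP against unstimulated (without unstimulated replicate 2 or either iBP library, up to 0.141) and for Ctla4 in that comparison (without either unstimulated or either iBP library, up to 0.301). For both stimulated groups, the call of Ctla4 ended in 5 of 6 fits without 1 library (all but the one without stimulated replicate 1), and that of Tnfrsf18 without unstimulated replicate 2 (0.0518) or iBP replicate 2 (0.0568). The call of Foxp3 with stimulation held without any 1 library, but ended when no filter was set (0.132) or no variance trend was used (0.117). So did those of Il2ra (0.133 and 0.193) and Tnfrsf18 (0.173 and 0.31) with stimulation, and those of Foxp3 (0.087 and 0.0975), Il2ra (0.157 and 0.238) and Ctla4 (0.183 and 0.358) with iBP against unstimulated. The call of Tnfrsf18 with stimulation also ended with only the compared groups in the fit (0.0534).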

How the data were processed

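SMART-seq libraries of WT mouse Treg, 2 per group, were analysed. Per the labels' protocols, 100000 cells were collected in TRIzol, 40 ng of total RNA was primed with oligo-dT before PCR. What the authors deposited are FPKM values, 1 column per library. Libraries of Kdm2b-deficient Treg were not analysed here. The submitters' processing notes name HISAT2 2.2.1, StringTie 2.1.1 and mm10. The annotation, strandedness, filters and handling of multi-mapped reads were not found in these notes, and overlapping or near-identical genes may share reads. With no read depth, counting error cannot be given, and whether PCR copies were removed is not stated. Summed FPKM ran from 366044 to 381302 and genes above 0 from 12596 to 13592 per library.

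The log2(FPKM + 1) values of the 6 libraries were fitted in limma 3.58.1 (R 4.3.3) with 1 mean per group, with a variance trend (3 residual and 8.52 prior degrees of freedom), over genes with at least 1 FPKM in at least 2 libraries. Two-sided p-values were adjusted by Benjamini-Hochberg across the tested genes in each of 4 comparisons. The script was tested on simulated data. Whether libraries of a group are of separate animals is not in the labels; the spread behind the p-values is that of these samples alone and may be technical. Fold changes of low genes are understated on this scale.

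The members and lists were chosen with earlier results of these data known. All 9 members are named; from each other list, apart from the cell type markers, every gene that passed is named or, where none did, the 2 with the largest difference with stimulation. Others named (Dnmt3l, Tdg, Kdm2b with iBP, Cd79b) were chosen after their values were seen. The values of 1 listed gene are not reported here. Gene coordinates are those of GENCODE M21 (GRCm38), looked up by symbol, and promoter sequences from RefSeq, GRCm38.p6. The alternatives were a pseudocount of 0.1, no filter, a minimum FPKM of 5, TPM, median-of-ratios and quantile scaling, no variance trend, robust moderation, a replicate block, only the compared groups, and leaving out each library. Figures were drawn with matplotlib 3.10.9.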

Additional observations from a re-analysis of the deposited data

How the results depend on the processing

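The count of 0 members past the test held under 16 settings in 3 comparisons and 15 in the fourth, where all libraries are already in the comparison. A minimum FPKM of 5 left out Dnmt3b, and Tet1 could be fitted only without the filter. Differences of members changed sign in 25 of 500 cases, 22 of them on leaving out 1 library, and 0 of these differences had passed. With 1 library left out the sign turned and the values ranged, in stimulated against unstimulated Dnmt1 (−0.28 to 0.31), Dnmt3b (−0.12 to 0.47), Mbd1 (−0.40 to 0.30), Mbd2 (−0.068 to 0.17), Mbd4 (−0.79 to 0.28), Cdk2ap1 (−0.76 to 0.064); in iBP against stimulated Dnmt1 (−0.18 to 0.37), Mbd1 (−0.30 to 0.028), Mbd2 (−0.52 to 0.10); in iBP against unstimulated Dnmt1 (−0.19 to 0.40), Dnmt3a (−0.43 to 0.27), Uhrf1 (−0.081 to 0.046), Mbd1 (−0.54 to 0.16), Mbd2 (−0.46 to 0.15); in both stimulated groups against unstimulated Dnmt1 (−0.23 to 0.36), Dnmt3a (−0.66 to 0.045), Dnmt3b (−0.026 to 0.56), Mbd1 (−0.47 to 0.23), Mbd2 (−0.21 to 0.10). Without a change of sign, the difference with stimulation ran from 0.10 to 0.27 for Uhrf1, −0.69 to −0.26 for Gatad2a, −0.59 to −0.18 for Igf2r and 0.36 to 0.73 for Ahcyl1. That with iBP against stimulated ran from 0.26 to 0.64 for Dnmt3a, 0.018 to 0.34 for Dnmt3b and −0.29 to −0.12 for Uhrf1. The difference of Uhrf1 in iBP against unstimulated turned to 0.0222 as TPM, 0.0138 with median-of-ratios scaling and 0.0134 with quantile normalization.

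Counts over all genes changed with the settings. In stimulated against unstimulated the number past the test was 135, with 54 to 141 on leaving out 1 library, 12 without the filter on low values, 12 without the variance trend and 77 with only the compared groups in the fit. In iBP against stimulated it was 1, with 0 to 5 on leaving out 1 library, 0 without the filter and 0 without the trend. In iBP against unstimulated it was 183 (53 to 190, 11 and 9), and for both stimulated groups 254 (116 to 224, 20 and 32). The cause was not tested. Same-numbered libraries did not deviate together (correlations across genes of −0.0462, −0.0185 and −0.0118). With 2 libraries a group this cannot tell whether the number pairs samples, and the labels state no pairing. With a replicate block the counts were 79 for stimulation and 109 for iBP, each against unstimulated. The block changed no member's call. It ended the calls of Tnfrsf18 with stimulation (adjusted p = 0.0618) and of Ctla4 with iBP against unstimulated (0.108) and for both stimulated groups (0.0691). Without the filter and without the trend, calls of Foxp3, Il2ra, Tnfrsf18, Ctla4 and Mcm6 given in the report were lost, except Foxp3 for both stimulated groups without the trend. Read depth is unknown, so how far it limits the values of Tet1 and Dnmt3b cannot be given; the median half-width of a 95% interval was 0.57 (log2).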
